A study of Mus musculus with 48 samples.

Results

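Maternal separation (MS) was compared with standard rearing without early stress (C) in the amygdala of male mice lacking both functional copies of Tph2 (Tph2-/-). The comparison took the 8 Tph2-/- MS and the 8 Tph2-/- C libraries, 16 of the 48 libraries of the series, and covered all 187695 loci of the deposited count table. The remaining 32 libraries, 8 each of MS and C in wildtype (Tph2+/+) and heterozygous (Tph2+/-) mice, were used where the Tph2-/- loci are set beside the other genotypes. All mice were males of 4 months from heterozygous parents, C57BL/6 by the labels and on a C57BL/6N background by the methods, and the knockout is constitutive, so every cell of the body carries it. In MS, pups and dam were kept apart for 3 h daily between postnatal days 2 and 15, and C litters were reared in the standard way. The mice of every group were housed singly after weaning and went through behavioural tests before tissue was taken from both hemispheres, so the C mice are not untreated animals. Litters are not given in the labels, so mice that shared a dam could not be taken into account. Each library is 1 mouse, and the p-values below measure the spread between mice.

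Tph2 encodes tryptophan hydroxylase 2, the rate-limiting enzyme of serotonin synthesis in neurons of the brainstem raphe, whose fibres reach the amygdala. The amygdala links sensory input to fear, anxiety and aggression, and early life stress is a known risk factor for disorders of these behaviours. DNA methylation in mammals sits mostly on the cytosine of CpG dinucleotides, and at promoters rich in CpGs it usually goes with a silent gene. In MBD-seq, fragments of DNA are captured with a methyl-CpG-binding domain and sequenced, so that the number of reads at a locus depends on its methylation, on how many CpGs it holds and on how stringent the capture was. The counts measure DNA and not RNA, so the labelled tissue could not be checked against the RNA of its cell types.

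The 3 loci that were higher and the 3 that were lower in Tph2-/- MS with the steadiest p-values (the largest of the p-values from 3 sets of libraries was the smallest) are shown as sequence, because the CpGs in them are what the capture binds. Each line is the stretch of 300 bases with the most CpGs in that locus, read 5′ to 3′ on the plus strand of the RefSeq GRCm38.p6 genome, with every CpG in capitals. The 3 higher loci lie in an intron of Hk2 (chr6:82745490-82746708, shown chr6:82746218-82746517), 3688 bp upstream of the long noncoding RNA 4930407G08Rik (chr4:107948879-107950244, shown chr4:107949588-107949887) and in an intron of Cntfr (chr4:41681337-41682307, shown chr4:41681791-41682090). The 3 lower loci lie 1472 bp upstream of Mroh2a (chr1:88223444-88225514, shown chr1:88224590-88224889), in an intron of Astn2 (chr4:66316025-66316932, shown chr4:66316215-66316514) and in an intron of Gm21847 (chr5:15632153-15633224, shown chr5:15632464-15632763).
Hk2: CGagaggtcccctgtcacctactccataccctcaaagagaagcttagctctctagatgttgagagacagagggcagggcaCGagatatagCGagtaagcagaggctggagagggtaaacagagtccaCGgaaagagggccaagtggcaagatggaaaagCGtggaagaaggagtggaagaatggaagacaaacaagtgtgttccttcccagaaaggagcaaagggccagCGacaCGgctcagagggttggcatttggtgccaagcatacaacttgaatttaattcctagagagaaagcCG
4930407G08Rik: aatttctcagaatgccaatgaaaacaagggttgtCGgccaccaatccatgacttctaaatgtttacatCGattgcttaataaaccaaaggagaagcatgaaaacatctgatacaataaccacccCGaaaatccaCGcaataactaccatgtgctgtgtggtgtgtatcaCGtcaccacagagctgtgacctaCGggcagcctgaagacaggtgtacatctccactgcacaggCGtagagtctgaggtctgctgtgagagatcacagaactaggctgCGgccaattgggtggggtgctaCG
Cntfr: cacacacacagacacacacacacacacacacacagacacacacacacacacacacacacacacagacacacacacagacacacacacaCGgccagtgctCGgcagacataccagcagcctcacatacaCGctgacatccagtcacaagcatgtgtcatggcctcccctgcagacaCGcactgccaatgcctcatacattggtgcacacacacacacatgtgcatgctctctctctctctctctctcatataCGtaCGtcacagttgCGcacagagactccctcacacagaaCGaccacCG
Mroh2a: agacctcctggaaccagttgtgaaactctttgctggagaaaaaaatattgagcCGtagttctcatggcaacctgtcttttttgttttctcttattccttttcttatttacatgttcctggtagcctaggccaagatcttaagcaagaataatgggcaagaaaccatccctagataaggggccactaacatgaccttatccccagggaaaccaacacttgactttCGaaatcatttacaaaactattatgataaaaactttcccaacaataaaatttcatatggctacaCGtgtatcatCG
Astn2: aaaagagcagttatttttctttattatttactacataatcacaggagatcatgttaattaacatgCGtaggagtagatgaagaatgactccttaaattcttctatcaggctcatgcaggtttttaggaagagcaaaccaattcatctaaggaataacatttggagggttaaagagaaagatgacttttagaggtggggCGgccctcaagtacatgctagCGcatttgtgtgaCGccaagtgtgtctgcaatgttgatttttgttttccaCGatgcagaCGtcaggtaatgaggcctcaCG
Gm21847: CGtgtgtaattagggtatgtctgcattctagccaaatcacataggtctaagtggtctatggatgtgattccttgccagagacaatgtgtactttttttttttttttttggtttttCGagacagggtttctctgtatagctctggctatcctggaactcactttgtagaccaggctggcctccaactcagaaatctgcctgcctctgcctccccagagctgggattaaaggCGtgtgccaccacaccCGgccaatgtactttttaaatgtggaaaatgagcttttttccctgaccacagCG
The stretches of the higher loci hold 8, 9 and 9 CpGs, and those of the lower loci hold 4, 7 and 5. Over the whole locus the CpG density was 1.72, 1.39 and 1.44 per 100 bp for Hk2, 4930407G08Rik and Cntfr, and 0.386, 1.21 and 0.746 for Mroh2a, Astn2 and Gm21847, against a median of 1.82 over all loci.

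The total count at the loci was 10001541 to 13445956 in the Tph2-/- C libraries and 8094939 to 14133801 in the Tph2-/- MS libraries. Tph2-/- MS replicates 2 and 3 stood apart from the other 14 libraries. Their normalisation factors by the trimmed mean of M-values (TMM) were 0.817 and 0.584, where the others lay between 0.931 and 1.12. The CpG slope, by which the log2 CPM of a library rose per SD of the CpG density of the loci, relative to the mean of all 48 libraries, was 0.242 and 0.333 in these libraries, and at most 0.131 in the other MS and 0.0579 in the C libraries. Replicate 3 had no read at 6027 loci and replicate 2 at 712, against 9 to 411 loci in the others. The study's methods state that 2 Tph2-/- MS libraries were left out in quality control without naming them in the labels, and therefore the calls were made in 3 sets of libraries, which are all 16, the 14 without MS replicates 2 and 3, and the 14 without MS replicates 3 and 7, whose totals were the lowest. The sample numbers of the labels run from S1 to S12 and S42 to S44 in C and from S18 to S24 and S33 to S37 in MS, so rearing and position in this numbering cannot be told apart. The mean CpG slope was 0.189 in the 4 MS libraries S18 to S24 and -0.0113 in the 4 MS libraries S33 to S37.

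**Figure D1:**
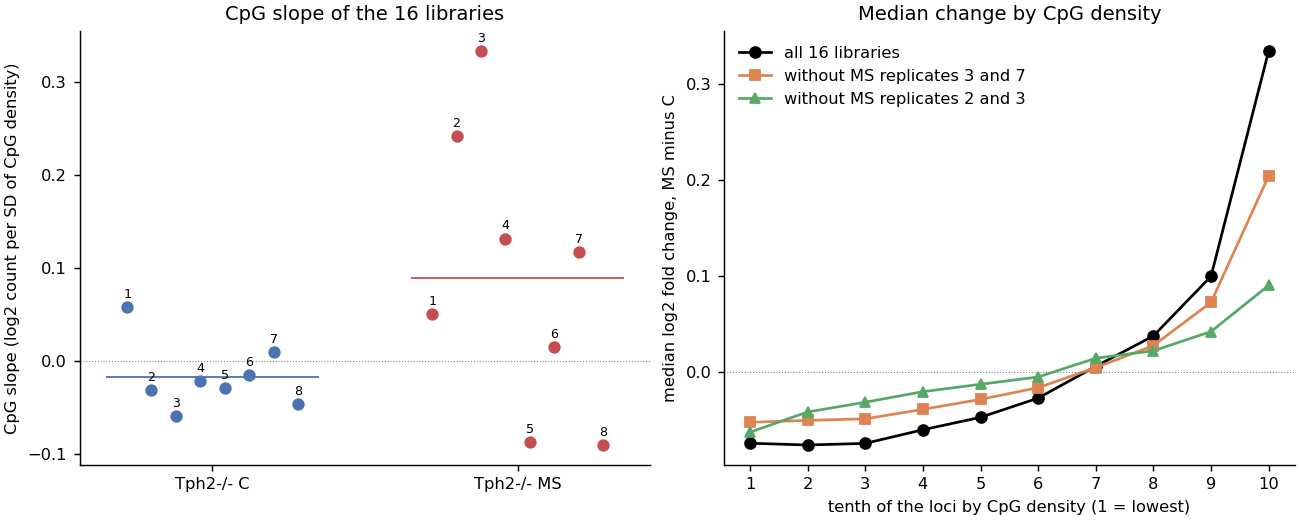
The left panel plots the CpG slope (log2 CPM per SD of the CpG density of the loci) of each of the 16 Tph2-/- libraries with its replicate number, and the line is the group mean. The right panel plots the median log2 fold change, MS minus C, in 10 classes of the loci by CpG density for the 3 library sets. MS replicates 2 and 3 have the highest slopes, 0.242 and 0.333, and without them the median of the densest class is 0.09 in place of 0.33.

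No locus differed between Tph2-/- MS and C mice after correction over all loci in any of the 3 library sets. With edgeR's quasi-likelihood test the smallest Benjamini-Hochberg adjusted p was 0.436 with all 16 libraries, 0.166 without replicates 2 and 3, and 0.847 without replicates 3 and 7. The counts at an unadjusted p under 0.05 were 19362, 8415 and 10652 loci, which is 10.3, 4.48 and 5.68% of those tested, and DESeq2 and limma on all 16 libraries also gave 0 loci at an adjusted p under 0.05. The study set its limits at a log2 fold change of more than 0.2 in either direction together with an unadjusted p under 0.01. With all 16 libraries 2544 loci were past these limits with higher counts in MS (1.36% of all loci) and 1439 with lower counts (0.767%). Without replicates 2 and 3 the counts were 623 higher (0.332%) and 937 lower (0.499%), and without replicates 3 and 7 they were 849 (0.452%) and 989 (0.527%). Leaving out these libraries took the loci lower in MS from the smaller to the larger share of the calls. If no locus differed, about 1877 loci would have an unadjusted p under 0.01. The totals past both limits were 3983 with all 16 libraries, 1560 without replicates 2 and 3, and 1838 without replicates 3 and 7. In all 3 sets, with the same sign, 290 loci were higher (0.155%) and 544 were lower (0.29%), and these are called the higher and lower loci below. Of the 3983 loci past the limits with all 16 libraries, 1097 were also past them without replicates 2 and 3, which is 27.5% of the first and 70.3% of the second list.

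**Figure D2:**
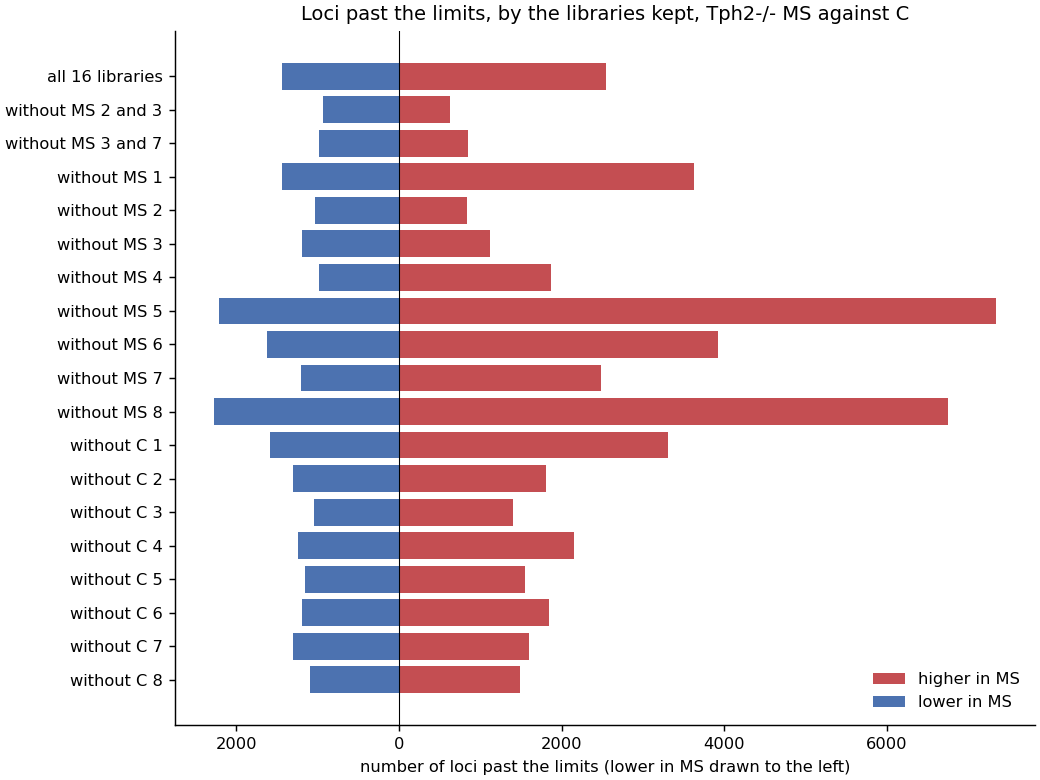
Bars show the number of loci past the limits of the study, to the right where counts were higher in Tph2-/- MS and to the left where they were lower, for all 16 libraries and with the named libraries left out. The total ran from 1560 loci without MS replicates 2 and 3 to 9555 without MS replicate 5.

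The 12 higher loci with the steadiest p-values lay in introns or away from genes. The locus in an intron of Hk2, which encodes hexokinase 2 of the first step of glycolysis, had a lowest, median and highest level of 1.28, 1.75 and 2.47 CPM (counts per 1e+06 reads at the loci, normalised by TMM) in Tph2-/- C and of 2.28, 3.07 and 4.75 CPM in Tph2-/- MS. All but 1 of the MS libraries lay above the highest C library. The mean was 1.86-fold higher in MS, a log2 fold change of 0.89 ± 0.20 (SE), and it was 0.87 without replicates 2 and 3 and 0.98 without replicates 3 and 7. Upstream of 4930407G08Rik the levels were 1.95, 3.67 and 4.04 CPM in C and 4.57, 5.63 and 7.01 CPM in MS, and the groups did not overlap (log2 fold change 0.75 ± 0.16, and 0.67 without replicates 2 and 3). Such a gap in this direction was found at 22 loci (0.0117% of all loci) and in the other direction at 41 (0.0218%). In the intron of Cntfr, the gene of the ciliary neurotrophic factor receptor subunit that binds the ligand, the levels were 1.18, 2.44 and 3.04 CPM in C and 2.85, 4.57 and 8.01 CPM in MS. Here 7 MS libraries were above all C libraries (log2 fold change 0.99 ± 0.21, and 0.87 without replicates 2 and 3).

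Next in this order by known genes was an intronic locus of Unc5cl (chr17:48456799-48458696), which encodes a protein with a death domain. It had 3.76, 4.63 and 5.74 CPM in C and 5.63, 6.55 and 7.78 CPM in MS, where 7 MS libraries were above all C libraries (log2 fold change 0.53 ± 0.14). The loci nearest Gm13576 (chr2:64631963-64633375) and Gm7902 (chr5:133827903-133828667) were separate between the groups. They had 3.57, 5.16 and 6.26 CPM in C against 6.36, 8.93 and 20.1 in MS at Gm13576, and 0.884, 1.26 and 1.88 CPM against 2.00, 2.42 and 3.70 at Gm7902. The locus at Gm13576 has 12 near-identical copies elsewhere in the genome (at least 95% identity over at least 50% of its length), so its reads may come from any of them. At the loci of Gm7117 (chrX:105736317-105737344), Gm24122 (chr1:102001669-102002848), Gm25127 (chr3:149051611-149053223) and Gm26760 (chr15:92352217-92353196) the highest levels, 21.4, 27.3, 13.6 and 6.49 CPM, came from MS replicates 2 and 3. Their log2 fold changes were 1.20, 1.08, 1.29 and 1.0 with all 16 libraries and 0.68, 0.59, 0.85 and 0.75 without these libraries. The remaining loci of this order were those of Gm12029 (chr11:19831653-19832793, log2 fold change 0.62) and Gm20388 (chr8:123595192-123596323, 1.01, with at least 20 copies). The loci named by Gm7117, Gm24122, Gm25127 and Gm12029 lie 10803, 103601, 22573 and 47170 bp from these genes, which are the nearest.

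The lower locus upstream of Mroh2a, a gene of the maestro heat-like repeat family, had the smallest p of all loci in each of the 3 sets. Its levels were 4.94, 5.75 and 8.61 CPM in C and 1.49, 3.06 and 4.23 CPM in MS, so that the groups did not overlap. The log2 fold change was -1.10 ± 0.20 with all 16 libraries (adjusted p = 0.436 in edgeR), -1.07 ± 0.19 without replicates 2 and 3 (adjusted p = 0.166) and -1.02 without replicates 3 and 7 (adjusted p = 0.847). In an intron of Astn2, which encodes astrotactin 2, a membrane protein of neuronal migration along glial fibres, the levels were 1.53, 2.52 and 3.04 CPM in C and 0.216, 0.971 and 1.42 CPM in MS. The groups were separate here too (log2 fold change -1.32 ± 0.25, and -1.21 without replicates 2 and 3). In an intron of Btla (chr16:45232437-45233145), the gene of an inhibitory receptor of lymphocytes, the levels were 1.15, 2.14 and 2.85 CPM in C and 0.00, 0.754 and 1.14 CPM in MS, again without overlap (log2 fold change -1.44 ± 0.30, and -1.27 without replicates 2 and 3). The lowest levels at Astn2 and Btla are those of few reads, so the precision of single libraries is limited by counting.

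Separate groups were also seen at the loci of Speer4e (chr5:14940079-14941553), Gm826 (chr2:160202165-160202839), Gm9758 (chr5:14902941-14904022) and Fam180a (chr6:35319407-35320608). The locus of Fam180a is intronic, and the others are named by the nearest gene. They lie 1650 bp upstream of Speer4e, 108554 bp downstream of Gm826 and 6100 bp downstream of Gm9758. The loci at Speer4e and Gm9758 have 8 and 2 near-identical copies. At Speer4e, a member of a gene family expressed in testis, the levels were 4.86, 6.08 and 8.76 CPM in C and 2.60, 3.56 and 4.48 CPM in MS (log2 fold change -0.85 ± 0.17). The log2 fold changes of Gm826, Gm9758 and Fam180a were -1.19, -1.15 and -1.01. At Gm21847, whose sequence is given above, the levels were 2.12, 3.74 and 5.06 CPM in C and 1.07, 1.79 and 2.28 CPM in MS, with 7 MS libraries below all C libraries (log2 fold change -1.11 ± 0.21). Gm2427 (chr1:85500586-85501821), Gm21119 (chr8:20643868-20644940), Gm16025 (chr1:85332462-85333941) and Speer4cos (chr5:15674064-15675263) complete the order with log2 fold changes of -1.12, -1.08, -0.82 and -0.88. The loci of Gm21119 and Speer4cos lie 3165 bp downstream and 5447 bp upstream of the gene. In all, 3 of the 12 higher and 7 of the 12 lower loci had groups without overlap, a choice by p that favours such loci, and 6 of the 12 lower loci have near-identical copies. Every one of the 24 loci had an adjusted p of 0.436 with all 16 libraries.

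**Figure D3:**
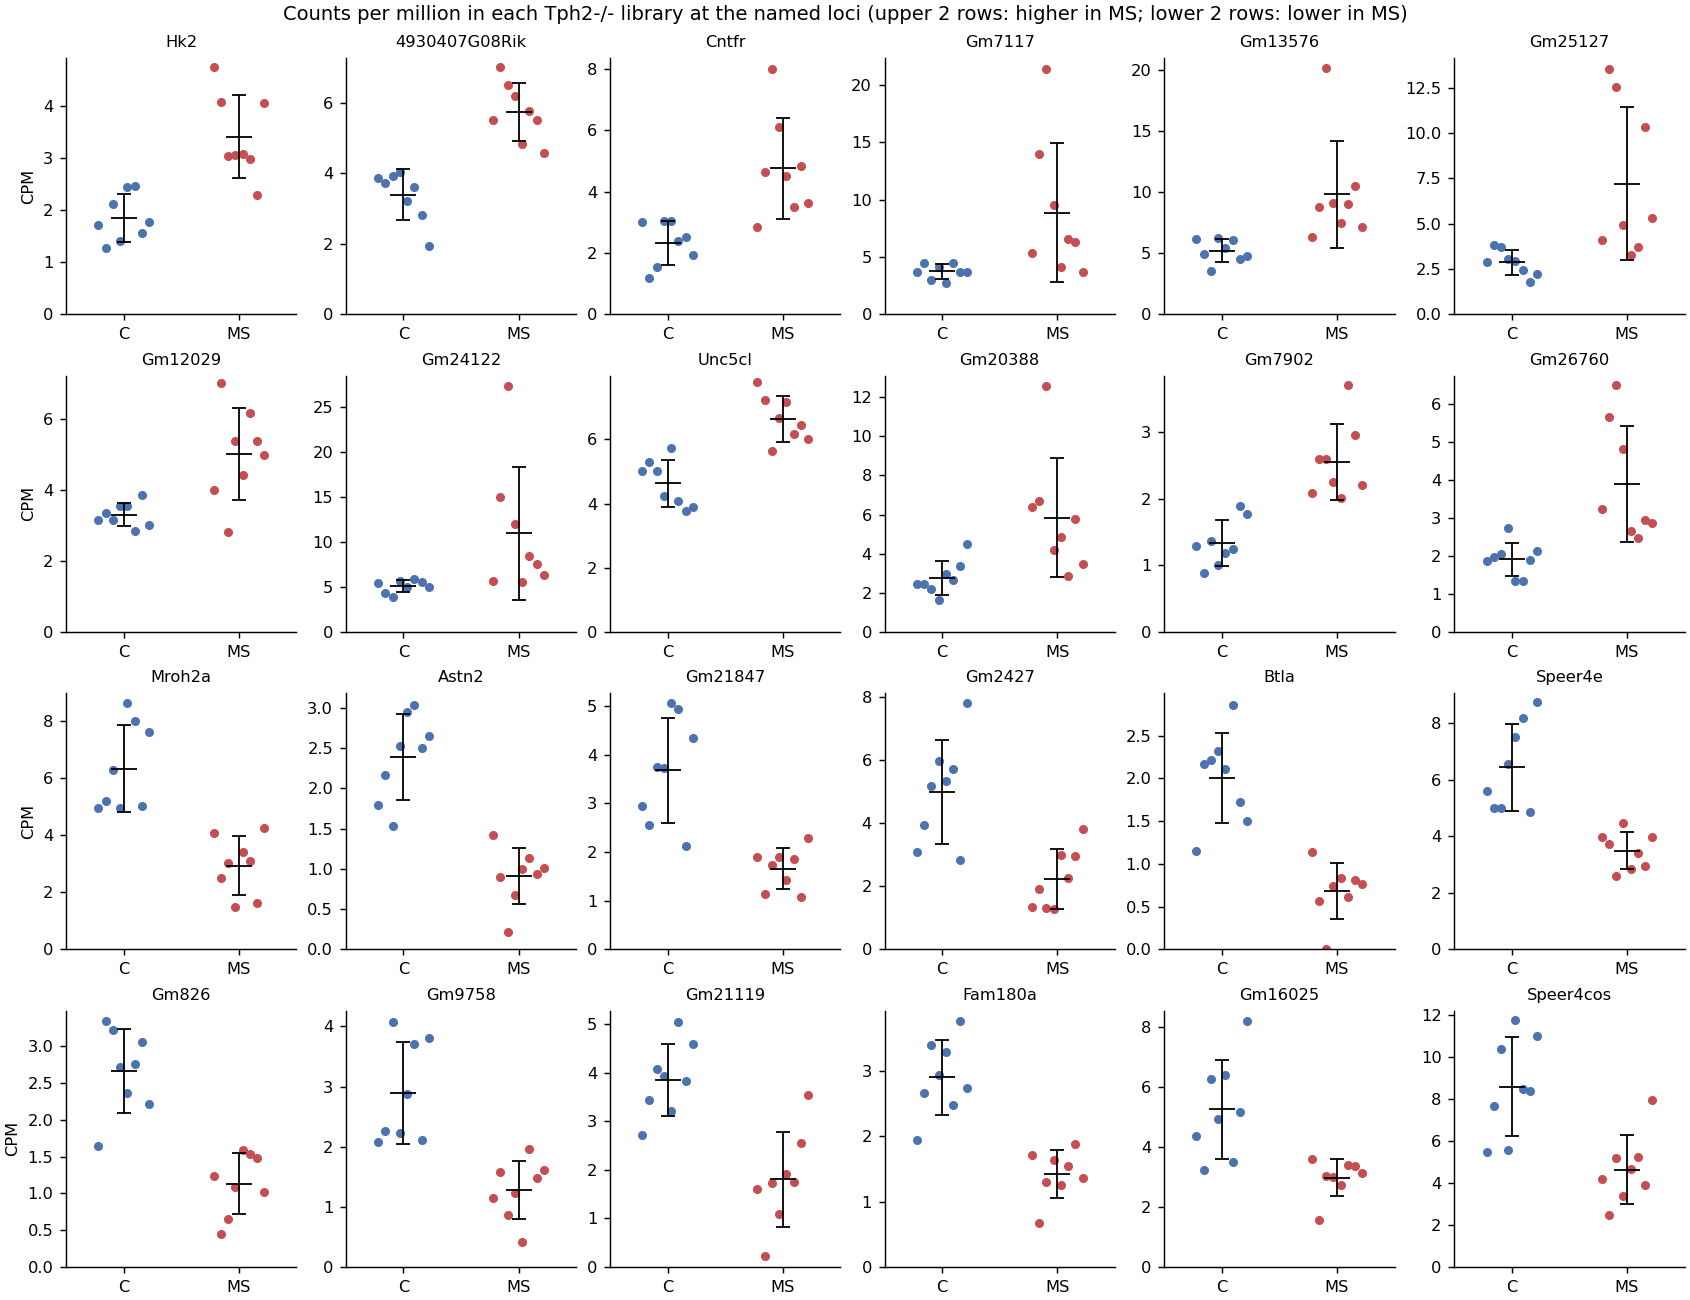
Each panel plots the CPM of the 8 Tph2-/- C and 8 Tph2-/- MS libraries at 1 of the 12 higher loci (upper panels) and 12 lower loci (lower panels), with the mean and SD as a bar. The groups do not overlap at 3 of the higher loci, among them 4930407G08Rik, and at 7 of the lower loci, among them Mroh2a, Astn2 and Btla.

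The direction of the change followed the CpG density of the loci when all 16 libraries were used. In the 10% of the loci with the fewest CpGs (at most 0.938 per 100 bp) the median log2 fold change was -0.07, with 113 higher and 348 lower loci past the limits. In the 10% with the most (at least 2.71 per 100 bp) the median was 0.33, with 1158 higher and 14 lower. Without MS replicates 2 and 3 the densest 10% had a median of 0.09 and held 89 higher and 19 lower loci, while the sparsest held 57 and 275. The higher loci of all 3 sets had a median of 2.15 CpGs per 100 bp and the lower loci 1.28, against 1.82 over all loci. Near-identical copies were present for 15.5% of the higher, 20.6% of the lower and 10.5% of all loci. Of 13721 loci within 1000 bp of a transcription start 1.13% were higher and 0.481% lower with all 16 libraries, against 1.36% and 0.767% of all loci. Of 33671 loci in coding exons these were 0.918 and 0.535%, and of 83444 intergenic loci 1.71 and 0.850%. Without replicates 2 and 3 the shares at transcription starts were 0.357% in each direction, against 0.332% and 0.499% of all loci. The CpG slope of the libraries differed by 0.106 between MS and C (two-sided exact permutation test over 12870 regroupings, p = 0.0690, adjusted p = 0.315 over 7 library measures). The difference was 0.0397 without MS replicates 2 and 3 (exact p = 0.296) and 0.0605 without MS replicates 3 and 7 (exact p = 0.238). With the slope as a covariate 149 of the 290 higher and 326 of the 544 lower loci were past the limits, and without the 4 MS libraries S18 to S24 these were 88 and 217.

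A part of the lower loci, 77 of 544 (14.2%), lay in 4 stretches of the genome, and 467 lay elsewhere. Windows of 1 Mb with at least 8 lower loci merged to chr1:85078390-85631977 with 25, chr4:147113573-147571738 with 8, chr5:14902941-15704265 with 32 and chr8:20139152-20677894 with 12. No other window held more than 4 of the lower loci, and no window held more than 2 of the higher loci. Each lower locus was assigned to a gene that it overlaps or, between genes, to the nearest gene, so not all lie within the gene named. On chromosome 1 Sp140, which encodes a nuclear body protein of immune cells, was assigned 7 of the lower loci and C130026I21Rik 5. On chromosome 4 Gm26624 was assigned 4 and Zfp985, a zinc finger gene, 1. On chromosome 5 the genes assigned were Gm21847 (6), Gm30613 (5), Gm17019 (4), Gm9758 (4), the Speer4 genes and others. On chromosome 8 they included 6820431F20Rik (4) and Gm21119 (3). Of the 77 loci 68 (88.3%) have a near-identical copy, from 3 of 8 on chromosome 4 to all 12 on chromosome 8 and all 32 on chromosome 5, so the reads of a locus may stem from its neighbours. They are also poor in CpGs, with a median per 100 bp of 0.691 on chromosome 1, 0.694 on chromosome 4, 0.557 on chromosome 5 and 0.763 on chromosome 8. The loci of a stretch share reads and position and are not independent counts.

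Summed over its lower loci, the stretch on chromosome 1 had 130, 193 and 259 CPM (lowest, median and highest) in Tph2-/- C and 90.7, 111 and 165 CPM in Tph2-/- MS. The sums on chromosome 5 were 167.3, 248 and 306 CPM in C and 111, 142 and 210 CPM in MS. Those on chromosome 4 were 19.4, 27.4 and 44.4 CPM against 11.3, 15.1 and 23.6, and those on chromosome 8 were 28.2, 45.9 and 55.7 CPM against 16.9, 24.4 and 35.1. In each stretch the groups overlapped, although all 8 MS libraries were under the median of C. The ratios of the means, MS to C, were 0.605, 0.533, 0.602 and 0.548 on chromosomes 1, 4, 5 and 8, which the choice of these loci fixes in direction and which carry no test. The same sums in the mice of the other genotypes took no part in the choice. In Tph2+/+ mice the ratios were 0.712 (two-sided exact permutation test, p = 0.0236), 0.666 (p = 0.0112), 0.722 (p = 0.0320) and 0.753 (p = 0.0894), and in Tph2+/- mice 0.803 (p = 0.0956), 0.760 (p = 0.0751), 0.792 (p = 0.0936) and 0.744 (p = 0.0569). All 8 ratios were below 1, and none passed an adjusted p under 0.05, the values being 0.0854 to 0.0956 over the 8 tests. Summed over all loci of the stretches, not the lower loci alone, the ratios were nearer to 1. They were 0.852 (exact p = 0.0457), 0.990 (exact p = 0.747), 0.787 (exact p = 0.0393) and 0.866 (exact p = 0.129) in Tph2+/+ mice on chromosomes 1, 4, 5 and 8, and 0.915, 0.963, 0.837 and 0.881 in Tph2+/- mice, with adjusted p from 0.183 to 0.747 over these 8 tests. Over the 32 libraries of the other genotypes the sums of the 4 stretches moved together. The highest of the 6 correlations was that of chromosomes 1 and 5 (Pearson's r = 0.990, Spearman's rho = 0.975, permutation p = 1e-05 for each, the smallest that 100000 draws can give, adjusted p = 1e-05). It was 0.989 without the 2 libraries farthest from the median, 0.988 within the 16 MS and 0.987 within the 16 C libraries. The lowest, that of chromosomes 4 and 8, was 0.805, with 0.846 within MS and 0.686 within C. With an offset that removes the trend on CpG density from each library, 24 of 25, 8 of 8, 31 of 32 and 12 of 12 loci were past the limits on chromosomes 1, 4, 5 and 8, and with the CpG slope as a covariate 20, 5, 27 and 6. These loci were chosen for passing the limits in the same Tph2-/- libraries, which favours this outcome. The part of CpG density in their change was not tested.

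**Figure D4:**
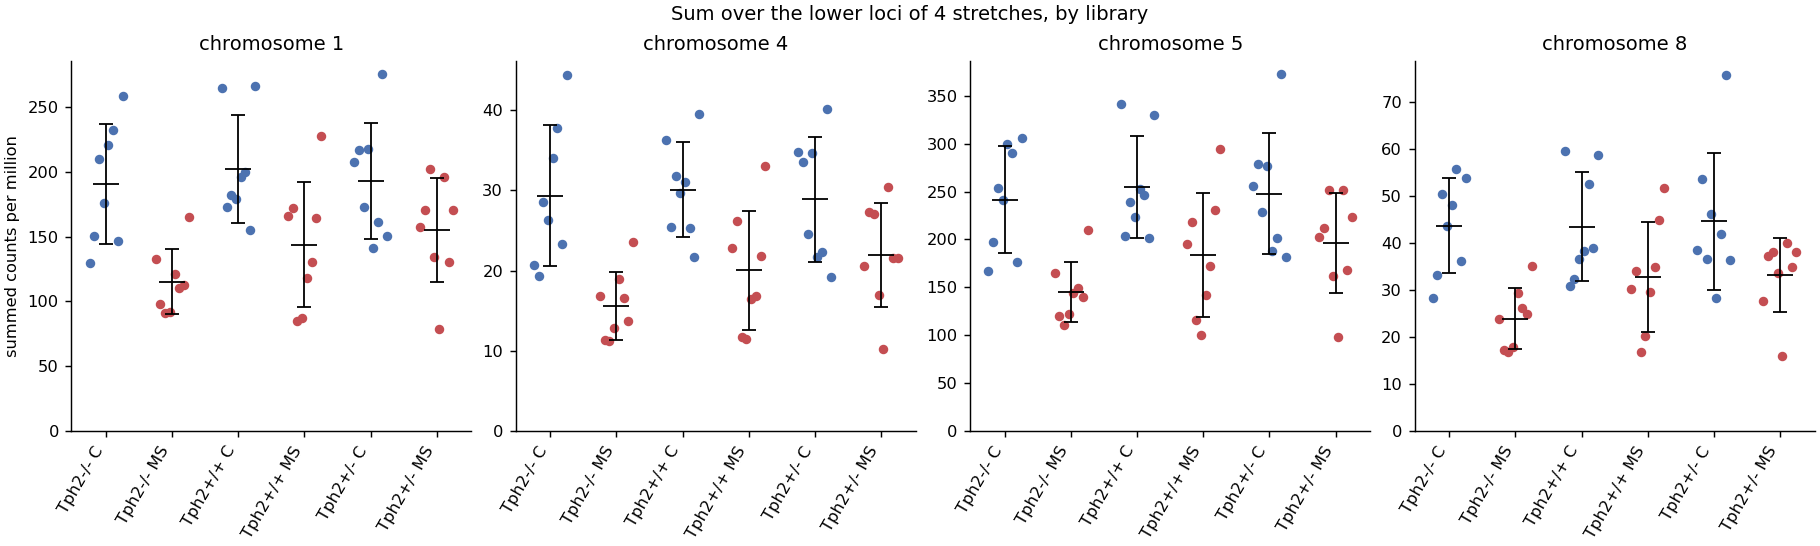
The summed CPM over the lower loci of each of the 4 stretches are plotted for every library of the series, with the mean and SD of the 8 libraries of each group as a bar. The MS means lie below the C means in all 3 genotypes, at ratios of 0.533 to 0.605 in Tph2-/-, 0.666 to 0.753 in Tph2+/+ and 0.744 to 0.803 in Tph2+/- mice.

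In mice with 1 or 2 functional copies of Tph2, most of these loci had changes of the same sign but of smaller size. The Tph2-/- changes chose the loci, so their median there, 0.71 for the 290 higher and -0.82 for the 544 lower loci, is larger by construction. The MS effect in Tph2+/+ mice had the same sign at 222 of the 290 higher loci (76.6%, against 50.5% of all loci above 0) and at 396 of the 544 lower loci (72.8%, against 49.5% below 0), with medians of 0.14 and -0.19. In Tph2+/- mice these were 202 (69.7%, against 50.1%) and 373 (68.6%, against 49.9%), with medians of 0.10 and -0.13. Past the limits in the same direction were 9 higher and 25 lower loci in Tph2+/+ (3.10 and 4.6%, against 0.424 and 0.572% of all loci) and 6 and 8 in Tph2+/- mice (2.07 and 1.47%, against 0.267 and 0.413%). Over all loci and both directions the limits were passed at 0.996% in Tph2+/+ and 0.681% in Tph2+/- mice. The MS mice of all genotypes carry sample numbers apart from those of the C mice, so a shift shared by the genotypes cannot be told apart from that numbering. Outside the 4 stretches the 467 lower loci were lower in 68.3% of cases in Tph2+/+ and in 63.8% in Tph2+/- mice.

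The MS effect in Tph2-/- mice itself was tested against that in the other genotypes with all 48 libraries. The difference passed the limits at 1184 loci against Tph2+/+ (0.631% of all loci) and at 1626 loci against Tph2+/- (0.866%), and at 0 loci after correction, where the smallest adjusted p was 0.998 and 0.898 in edgeR. If no locus differed, about 1877 would have an unadjusted p under 0.01. At Hk2 the change was -0.28 in Tph2+/+ and 0.25 in Tph2+/- mice, with differences of 1.17 ± 0.27 (SE) and 0.64 ± 0.27. The Hk2 median of Tph2-/- C, 1.75 CPM, was the lowest of the groups. It was 3.07 CPM in Tph2-/- MS, 2.96 and 2.42 CPM in Tph2+/+ C and MS, and 2.70 and 2.99 CPM in Tph2+/- C and MS. At 4930407G08Rik the changes were -0.05 and -0.19, with differences of 0.80 ± 0.22 and 0.93 ± 0.22. At Btla they were 0.13 and -0.26, with differences of -1.57 ± 0.40 and -1.18 ± 0.41. At Astn2 they were -0.43 and -0.09, and at Cntfr 0.49 and 0.54, the latter with differences of 0.49 ± 0.27 and 0.44 ± 0.27. The locus at Mroh2a was past the limits also in Tph2+/+ mice, with -0.86 ± 0.23 (adjusted p = 0.909 in edgeR), and its change in Tph2+/- mice was -0.31 ± 0.23. The difference between Tph2-/- and Tph2+/+ mice there was -0.24 ± 0.33. The loci named here were chosen by their change in Tph2-/- mice, which is part of each difference. The choice therefore favours large differences, and the SE do not allow for it. Of the 12 lower loci 11 had a change below 0 in Tph2+/+ and 12 in Tph2+/- mice, and of the 12 higher loci 10 had a change above 0 in each.

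**Figure D5:**
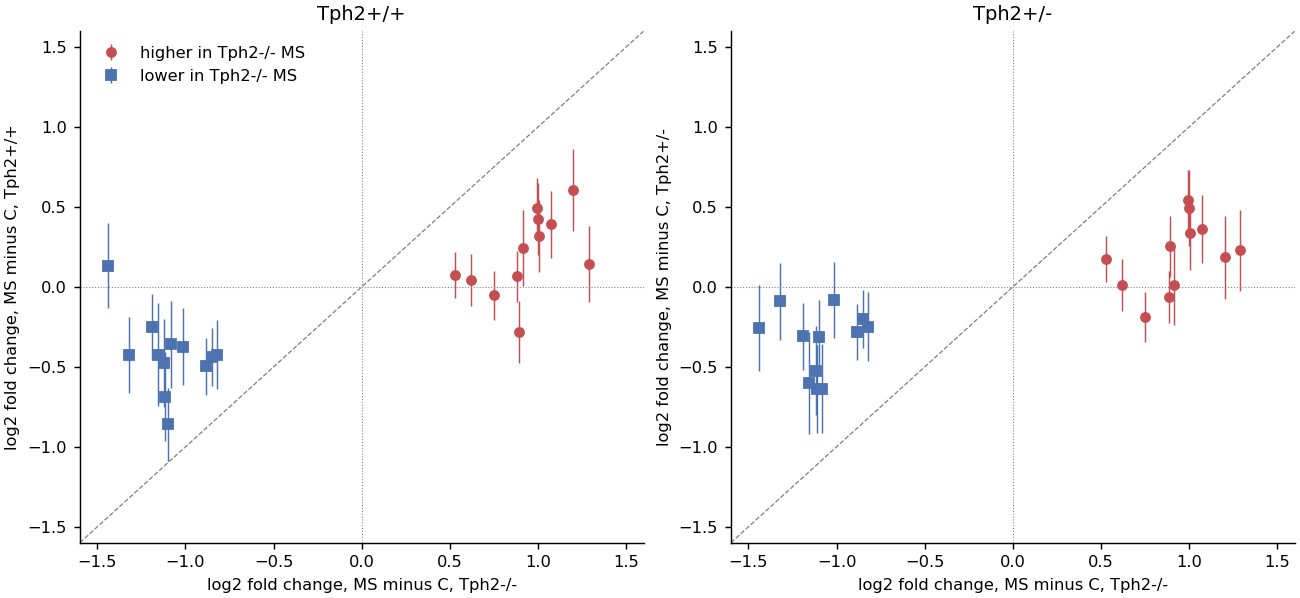
The log2 fold change, MS minus C, of the 12 higher and 12 lower loci in Tph2-/- mice (horizontal axis) is plotted against that in Tph2+/+ mice (left panel) and Tph2+/- mice (right panel), with SE as vertical bars and the dashed line marking equal changes. The points lie closer to 0 on the vertical axis, with Hk2 at 0.89 in Tph2-/- and -0.28 in Tph2+/+ mice, and 11 of the 12 lower loci lie below 0 in Tph2+/+ mice.

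Gene groups that relate to serotonin, stress and the cells of the amygdala were described by the loci in or within 2000 bp upstream of their genes. The counts are to be read against all loci, of which 1.36% were higher and 0.767% lower with all 16 libraries, and 0.332% and 0.499% without replicates 2 and 3. None of the 79 loci in genes of serotonin synthesis, transport and breakdown and none of the 96 loci in genes of the glucocorticoid and corticotropin stress axis was past the limits, and their median log2 fold changes were 0.02 each, against a median of 0.0018 over all loci. At these shares lists of this length hold few calls in any case. Of the genes in these lists 10 of 16 and 18 of 24 had a locus. Those without a locus, among them Maoa, Maob, Pomc and Avp, were not measured, nor were the receptor genes Htr1a and Htr1b. Of 48 loci in serotonin receptor genes 1 was higher and 1 was lower (2.08% each). The lower locus, in a coding exon of Htr7 (chr19:35969120-35970488), the gene of the 5-HT7 receptor, was past the limits in all 3 sets. It had 5.10, 6.74 and 7.54 CPM in C and 3.25, 4.27 and 6.11 CPM in MS, and 5 MS libraries lay below all C libraries (log2 fold change -0.51 ± 0.16). Its MS effect was -0.02 in Tph2+/+ and 0.18 in Tph2+/- mice, with differences of -0.50 ± 0.19 and -0.69 ± 0.19. The choice of this locus by its Tph2-/- change favours such differences.

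Of 144 loci in genes of GABA synthesis, transport and receptors 6 were higher and 1 was lower (4.17 and 0.694%, against 1.36 and 0.767% of all loci), and without replicates 2 and 3 the numbers were 0 and 1. The lower locus lay in a coding exon of Gad2 (chr2:22629968-22630781), which encodes the smaller of the enzymes that make GABA, with 1.80, 1.92 and 2.93 CPM in C and 0.433, 1.25 and 1.88 CPM in MS. The groups overlapped, with 6 MS libraries below all C libraries (log2 fold change -0.74 ± 0.24). Of 575 loci in genes of glutamate receptors, transporters and scaffolds 16 were higher and 2 lower (2.78 and 0.348%), and without replicates 2 and 3 these were 2 and 2. A lower locus that passed in all 3 sets lay in an intron of Slc17a8 (chr10:89607810-89608336, -0.97), the gene of the vesicular transporter VGLUT3 that serotonin neurons also carry. The higher loci that passed in all 3 sets lay in introns of Grm4 (chr17:27479042-27480230, 0.62) and Dlgap2 (chr8:14195099-14197214, 0.82), a receptor and a scaffold of the synapse. Of 623 loci in genes of neurexins, neuroligins and contactin-type adhesion proteins 16 were higher and 2 lower (2.57 and 0.321%), and without replicates 2 and 3 these were 3 and 2. The lower ones were in introns of Tenm4 (chr7:96567031-96567808, -1.07) and Cntnap5b (chr1:100229448-100230268, -0.84), and a higher one lay in an intron of Tenm3 (chr8:48504398-48506570, 0.45). The locus in Cntnap5b has at least 20 near-identical copies, so its reads may come from any of them.

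Among 117 loci in genes that write, erase or read DNA methylation, 1 was lower (0.855%, near the 0.767% of all loci) and 0 were higher. It lay within 1000 bp of a transcription start, in a coding exon of Dnmt3b (chr2:153669119-153669978), which encodes a methyltransferase that sets new methylation marks. Its levels were 1.62, 2.17 and 2.72 CPM in C and 0.949, 1.39 and 1.95 CPM in MS, and 7 MS libraries were below all C libraries (log2 fold change -0.72 ± 0.22). Of 251 loci in genes of neurotrophins and their receptors 3 were higher and 5 lower (1.20 and 1.99%, against 1.36 and 0.767% of all loci), and without replicates 2 and 3 these were 1 and 0. The higher locus in an intron of Sorcs3 (chr19:48267111-48268095, 0.76 ± 0.20), a receptor of the sortilin family, passed in all 3 sets. Other called loci of Sorcs3 were lower, in an intron (chr19:48241576-48242421, -0.90) and in a coding exon (chr19:48693121-48694304, -0.58). Neither of these passed in all 3 sets. In genes of the dopamine and noradrenaline system 2 of 92 loci were lower (2.17%), and without replicates 2 and 3 it was 1. They lay in an intron of the adrenergic receptor gene Adra1b (chr11:43795164-43796040, -0.74) and in a coding exon of Th (chr7:142930422-142931435, -0.61), the gene of the rate-limiting enzyme of catecholamine synthesis. Adra1b passed in all 3 sets and Th did not. Of 112 loci in genes of amygdala neuropeptides and their receptors 1 was higher and 1 lower (0.893% each). The lower one lay in an intron of Tacr1, the gene of the substance P receptor (-0.88). In this list 26 of 36 genes had a locus, and Npy, Sst and Vip were among those without. Of 78 loci in genes of the oxytocin system 1 was higher (1.28%). Of 40 loci in immediate early genes 1 was higher (2.5%), in a coding exon of Fosb (0.79). In imprinted genes 2 loci were higher and 1 was lower (0.678 and 0.339%, against 1.36 and 0.767% of all loci). None of 3 loci in Hox genes passed. Without replicates 2 and 3 no locus of the neuropeptide, oxytocin and immediate early gene groups passed, and in imprinted genes 0 loci were higher and 2 lower.

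Marker genes of the cells of the tissue were counted in the same way, against 1.36% higher and 0.767% lower over all loci. Of 138 loci in genes of myelin and oligodendrocytes 1 was higher, in a coding exon of Cnp, and 1 was lower, in an intron of Bcas1 (chr2:170392463-170393103, -0.77), which is 0.725% each. Of 79 loci in microglial genes 3 were lower (3.80%), in coding exons of Hcst, Itgam and P2ry12 (-0.63, -0.75 and -1.02). The listed gene of the Hcst locus is Tyrobp, as the locus lies in it or within 2000 bp upstream of it. Without replicates 2 and 3 the number of lower loci was 1, and none of the microglial loci passed in all 3 sets. Of 116 loci in genes of endothelium and mural cells 1 was lower (0.862%), in an intron of Flt1 (chr5:147693984-147694949), a receptor of vascular endothelial growth factor. At Flt1 the levels were 1.62, 3.36 and 4.74 CPM in C and 0.433, 1.76 and 2.26 CPM in MS, where 3 MS libraries were below all C libraries (log2 fold change -0.98 ± 0.23). Of 64 loci in genes of astrocytes 1 was higher (1.56%), and of 45 in those of choroid plexus and ependyma none passed. Of 398 loci in genes of neurons of cortex and striatum 7 were higher and 2 lower (1.76 and 0.503%), and without replicates 2 and 3 these were 2 and 1, with 0 higher and 1 lower in all 3 sets. The 2 lower ones lay in introns of Foxp1, a transcription factor of striatal neurons (chr6:99397609-99398242, -0.90, and chr6:99468888-99470303, -0.57). In bulk tissue a change of methylation and a change in the share of a cell type cannot be told apart.

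The 15 loci in Tph2 itself had no call. Of these 3 were higher and 12 lower in MS, at a median of -0.08 on the log2 scale, and 1 had an unadjusted p under 0.05. Their summed level was 33.3, 39.1 and 43.3 CPM in Tph2-/- C and 28.8, 36.7 and 45.04 CPM in Tph2-/- MS, a log2 fold change of -0.11 ± 0.09 (adjusted p = 0.563 over all genes in edgeR), and -0.02 without replicates 2 and 3. The ratio of the mean level in Tph2-/- to that in Tph2+/+ mice lay between 0.696 and 1.18 over the 15 loci, so none of them was without reads in the knockout and the loci do not check the genotype.

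When the counts of all loci of a gene were summed, 358 of 28923 genes were past the limits with higher counts in MS (1.24%) and 162 with lower counts (0.56%), again with none after correction (smallest adjusted p = 0.411 in edgeR, 3489 genes at an unadjusted p under 0.05). In all 3 sets 70 genes were higher (0.242%) and 42 lower (0.145%). The higher gene of the smallest steady p was Rgl2, an exchange factor for Ral GTPases, with 19.5, 20.4 and 22.3 CPM in C and 19.7, 27.7 and 45.4 CPM in MS (log2 fold change 0.52 ± 0.12), followed by the zinc transporter gene Slc30a5 (0.37), Rnft2 (0.31), Gm17118 (0.47) and Gm8617 (0.54). The groups were separate at Gm17118 and Gm8617. Lower were Gm9758 (-0.64), Btla (-0.72), Speer4e (-0.63), Ggact (-0.60) and Gm12874 (-0.88). Btla had 3.59, 4.24 and 4.94 CPM in C and 1.30, 2.82 and 3.17 CPM in MS, with no overlap. The order by p favours genes without overlap, and their share over all genes is not given here.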

How the data were processed

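MBD-seq counts were deposited by the authors as a table of raw read counts, 1 column per mouse, at loci merged from peaks called with MACS. Per the labels and the study's methods the reads were aligned to GRCm38 with Bowtie2 (2.1.0) and counted with DiffBind (2.0.9). The handling of duplicate and multi-mapped reads is not given in the sources used here. All 187695 loci were kept. Counts of the 16 Tph2-/- libraries were tested in R 4.3.3 with edgeR 4.0.16 (TMM normalisation, robust quasi-likelihood F-test, term for rearing, no covariate), with Benjamini-Hochberg adjustment over all loci or genes. The limits (log2 fold change of more than 0.2, unadjusted p under 0.01) are those of the study. Differences between genotypes came from 1 fit of the 48 libraries, with 6 groups. CPM were counts divided by the total times the TMM factor. Depth, as total counts, is given in the report. Within a group every pair of libraries differed by more than counting noise (chi-square per locus 2.11 to 12.6).

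Of the tests, the comparison of Tph2-/- MS with C at the loci was also run on simulated counts with known changes. Of 100 loci with a log2 change of 1, 57 had an adjusted p under 0.05 and 91 were past the limits. At a log2 change of 2 these were 99 and 100 of 100 loci. Among unchanged loci 5 had an adjusted p under 0.05 and 1839 were past the limits. The simulation drew each locus independently and gave the libraries no CpG slope, so its rates need not hold for the real libraries. It did not cover the other comparisons or models. Loci were annotated with the RefSeq GRCm38.p6 genome and a gene annotation of that build, coordinates are 1-based, and near-identical copies were found with minimap2 2.31-r1302. Named loci were the first 12 per direction by the largest of the 3 p-values of the library sets, up to 4 per gene list of those past the limits, and 5 genes per direction of the summed counts. Loci over 90% repeat-masked were counted and not named, except the 3 per direction of smallest p and, named after their values were seen, the locus with the most reads and those whose sign turned under an alternative. The comparison, the library sets and the 20 gene lists were chosen with earlier results of these data known. Alternatives were other library sets, each library left out, a replicate block, other normalisations, a CpG covariate, a count filter, DESeq2 1.42.0 and limma 3.58.1 voom. In the loess alternative the log2 offset followed CpG density. The authors' own comparisons were not used. A locus that the rule would name is not reported here.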

Additional observations from a re-analysis of the deposited data

Results flagged for a closer look

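At 4 of the named loci 1 Tph2-/- MS library lay far from the other 7, by a gap larger than Dixon's 95% limit for 8 values. Replicate 3 was the highest at Gm13576 with 20.1 CPM (next 10.5), at Gm24122 with 27.3 CPM (next 15.0) and at Gm20388 with 12.6 CPM (next 6.67). Replicate 2 was the lowest at Gm16025 with 1.58 CPM (next 2.75). Such gaps are met by chance in about 5% of groups, and 70 groups of 8 were examined. Replicates 2 and 3 are also the libraries of the highest CpG slopes (0.242 and 0.333), and the part of the slope in these gaps was not tested. Without them the log2 fold changes were 0.66 at Gm13576, 0.59 at Gm24122, 0.71 at Gm20388 and -0.73 at Gm16025, against 0.88, 1.08, 1.01 and -0.82 with all 16 libraries.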

How the results depend on the processing

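The count of loci past the limits, 3983 in the comparison of all 16 libraries (63.9% of them higher in MS), changed with the libraries and the model. It was 1560 without MS replicates 2 and 3 (39.9% higher), 1838 without replicates 3 and 7 (46.2%), 1651 without C libraries S42 to S44, 1751 without MS libraries S18 to S24, 1463 with the CpG slope as covariate (34.9%), 2443 with limma voom (48.8%) and 10088 with the dispersion of all 48 libraries (77.9%). Leaving out 1 library gave 1877 to 9555 loci, with 1877 without MS replicate 2, 2313 without MS 3, 9555 without MS 5, 9032 without MS 8, 2457 without C 3 and 2588 without C 8. With total counts alone 606 loci were higher and 2685 lower (18.4% higher), and over all loci the median change was -0.15. The replicate numbers did not pair the samples (correlations of same-numbered libraries from -0.137 to 0.135, 3 of 8 closest to their own number), and a replicate block gave 2699 loci, 1347 higher and 1352 lower. After correction 1 locus, that of Cldn34d (-0.72 ± 0.12, adjusted p = 0.0101 in edgeR), was called with the CpG slope as covariate, and 1 gene, again Cldn34d (-1.04, adjusted p = 0.0456), with the replicate block. Genes past the limits numbered 520, and 229 and 226 without replicates 2 and 3 and without 3 and 7. The difference to Tph2+/- passed at 1069 loci without replicates 2 and 3, against 1626. Turned in sign were the share of counts in island-like loci (-0.0518 percentage points without replicates 2 and 3), the total count (0.225 higher in MS without 3 and 7, in units of 1e+06 counts), and, with the CpG slope as covariate, the loci of Htr1f (-0.0333), Esr1 (-0.15), Tacr3 (-0.11) and Gabra3 (-1.91e-05), with Esr1 at -0.0820 also without S18 to S24. The cause was not tested. Of the 24 loci named first, 18 were past the limits in all 29 alternatives and 0 changed sign. These loci were chosen for passing with all 16 libraries, without replicates 2 and 3, and without 3 and 7. The sets with libraries left out are themselves among the alternatives, and the others rest largely on the same libraries. The choice therefore favours this outcome.
Limits: rearing and sample number cannot be told apart, litters are not known, and the counts of a locus are low, with a median SE of 0.229 on the log2 scale, so that changes of this size at a single locus lie within its error.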

Other observations

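An intronic locus of the claudin gene Cldn34d (chrX:76598179-76599534) was the only one of the 544 lower loci past the limits of the study also in Tph2+/+ and Tph2+/- mice, and it was chosen for description after its values were seen. It had 19.8, 33.2 and 41 CPM (lowest, median and highest) in Tph2-/- C and 7.14, 12 and 28.8 CPM in Tph2-/- MS, and the groups overlapped. The log2 fold change was -1.07 ± 0.26 (SE), -0.86 ± 0.19 without MS replicates 2 and 3, -0.76 ± 0.24 in Tph2+/+ and -0.65 ± 0.24 in Tph2+/- mice. Over all loci 10 were lower and 4 were higher in both of the other genotypes at these limits, and none of the 290 higher loci was among the latter.

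On the X chromosome, which holds 3073 loci and a median of 2.66 CpGs per 100 bp, 234 loci were higher and 14 lower in Tph2-/- MS with all 16 libraries (7.61 and 0.456%, against 1.36 and 0.767% of all loci), and the median log2 fold change was 0.28. Without replicates 2 and 3 the numbers were 18 and 14 (0.586 and 0.456%, against 0.332 and 0.499%) and the median 0.09. The locus with the most reads, chr9:2999846-3038818 at Gm10721, is 95.3% repeat-masked and took 15.0 to 26.6% of the counts of the Tph2-/- libraries.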
